A study of Mus musculus with 4 samples.

Results

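The regions examined here lie at 8 imprinted genes of the mouse, Peg3, Mest, Snrpn, Igf2r, Airn, Plagl1, Nnat and Grb10, whose loci carry methylation set in the germline. They were chosen by position, as the probes of a tiling array that fall in 7 windows of the mm9 genome around these genes, with Igf2r and Airn sharing a window. This gave 12 of the 22125 tiled regions on the array and 89 of its 174638 genomic probes, a region being a run of probes no more than 1000 bp apart. The files give coordinates and no gene names, so the gene of each window follows from the windows alone.

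The DNA came from 3T3-L1 cells, a mouse embryo fibroblast line that turns into fat cells when induced. The control was the wild type line, for which the labels name no control shRNA, and the other line stably carried shRNA8, directed against the long non-coding RNA slincRAD. Both lines were taken as uninduced cells at day -2 and as induced cells at day +2. Induction used dexamethasone at 1 µM and insulin at 167 nM together with 3-isobutyl-1-methylxanthine at 0.5 mM. Cells were harvested after several passages. There was 1 array for each line and day, 4 in all, with the DNA caught by an antibody against 5-methylcytosine (IP, labelled with Cy5) set against input DNA (labelled with Cy3). No group had a replicate, so no p-value is given, and each SD below is the spread over the probes of a region and not over cultures. The labels do not say whether shRNA8 cells are a single clone, and RNA was not measured, so neither slincRAD nor markers of the cell type could be checked.

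An imprinted gene is expressed from the copy of one parent. At these 7 loci a stretch of CpG-rich DNA acquires methylation in the oocyte, keeps it on the maternal copy through the wave of demethylation after fertilization, and stays unmethylated on the paternal copy. The zinc finger protein ZFP57 takes part in that maintenance by binding the methylated hexamer TGCCGC. A body cell is therefore known to carry methylated and unmethylated copies side by side, and an antibody against 5-methylcytosine can pull down only the methylated one. Several of these genes act in fat tissue or growth. Mest, also called Peg1, is known as a gene that rises with expansion of fat tissue, Plagl1 and Peg3 encode zinc finger proteins, and Grb10 is an adaptor that dampens insulin signalling. Igf2r is the receptor that clears the growth factor IGF2, and Airn is the antisense non-coding RNA that silences it on the paternal copy. Nnat encodes a small membrane protein and lies inside an intron of Blcap, and Snrpn encodes a splicing protein at the Prader-Willi locus.

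The annotated promoters of these genes differ widely in how many CpG sites lie in the 250 bases before the start. Whether those bases fall in the germline-marked stretch was not determined. RefSeq promoter sequences were found for 8 of 8 genes, in 14 entries, in a table of GRCm38, another build than that of the array. No array value is tied to a base of them. The 250 bases before the annotated start are printed, 5′ to 3′, for the genes whose regions carry the results below, with each CG in capitals.
Mest promoter: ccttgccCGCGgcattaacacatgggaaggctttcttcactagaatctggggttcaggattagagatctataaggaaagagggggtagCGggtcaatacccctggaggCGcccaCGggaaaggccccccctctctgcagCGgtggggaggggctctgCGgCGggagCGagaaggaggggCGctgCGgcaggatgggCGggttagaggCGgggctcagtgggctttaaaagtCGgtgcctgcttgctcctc
Nnat promoter: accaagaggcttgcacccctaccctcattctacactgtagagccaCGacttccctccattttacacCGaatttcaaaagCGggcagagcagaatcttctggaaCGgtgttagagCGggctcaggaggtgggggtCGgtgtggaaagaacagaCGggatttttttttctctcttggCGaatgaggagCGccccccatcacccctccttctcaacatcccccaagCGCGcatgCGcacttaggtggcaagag
Plagl1 promoter: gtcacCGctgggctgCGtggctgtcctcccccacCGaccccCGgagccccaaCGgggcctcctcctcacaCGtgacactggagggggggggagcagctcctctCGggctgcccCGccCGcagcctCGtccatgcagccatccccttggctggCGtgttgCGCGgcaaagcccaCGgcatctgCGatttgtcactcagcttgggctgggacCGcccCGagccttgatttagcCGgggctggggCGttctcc
Igf2r promoter: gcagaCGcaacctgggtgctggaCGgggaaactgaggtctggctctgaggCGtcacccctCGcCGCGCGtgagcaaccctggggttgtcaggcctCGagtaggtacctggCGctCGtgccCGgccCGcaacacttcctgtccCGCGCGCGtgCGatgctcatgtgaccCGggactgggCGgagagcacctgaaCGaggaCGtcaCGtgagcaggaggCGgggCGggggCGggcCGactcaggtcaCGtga
Airn promoter: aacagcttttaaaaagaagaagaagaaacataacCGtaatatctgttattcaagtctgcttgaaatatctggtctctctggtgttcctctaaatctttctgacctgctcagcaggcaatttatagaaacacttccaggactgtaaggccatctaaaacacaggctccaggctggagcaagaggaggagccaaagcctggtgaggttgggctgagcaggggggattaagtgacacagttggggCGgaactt
Grb10 outer promoter: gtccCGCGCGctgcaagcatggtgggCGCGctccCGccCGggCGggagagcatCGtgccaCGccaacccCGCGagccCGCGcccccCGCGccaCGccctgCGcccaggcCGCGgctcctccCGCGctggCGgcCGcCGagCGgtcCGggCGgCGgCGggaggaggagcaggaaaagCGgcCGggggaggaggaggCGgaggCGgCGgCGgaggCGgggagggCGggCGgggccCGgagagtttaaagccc
Grb10 inner promoter: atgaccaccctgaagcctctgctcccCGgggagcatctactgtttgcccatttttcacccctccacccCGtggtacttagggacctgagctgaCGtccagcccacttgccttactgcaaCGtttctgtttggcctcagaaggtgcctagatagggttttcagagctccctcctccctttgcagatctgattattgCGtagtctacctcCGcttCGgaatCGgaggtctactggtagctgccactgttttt
The outer promoter of Grb10 held 40 CG, as many as or more than 98.9% of the promoters in the table, and that of Igf2r held 27. The promoters of Plagl1 and Nnat held 19 and 12. The Mest entry shown held 14, while another Mest entry, which does not overlap it, held 7. The inner promoter of Grb10 held 8 and that of Airn 2, against a median of 6 over 32851 promoters. Of the remaining genes, Peg3 had 8 CG, and the 4 entries of Snrpn had between 2 and 4. The hexamer TGCCGC, read on both strands, was found in 3 of the 14 entries, those of Plagl1 and 2 overlapping ones of Mest, and 8.68% of all promoters hold it. A match is a description of letters in this window.

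On the array the 7 windows broke up into 12 tiled regions, since the design places groups of probes and leaves gaps. Where a window has a pair of regions they are called lower and upper by coordinate. In the Igf2r/Airn window the centres of the regions lay 29.1 kb apart, and the starts of Airn and Igf2r are 28.4 kb apart in RefSeq, with Airn at the lower coordinate. In the Grb10 window the regions lay 9.5 kb apart and the outer and inner starts 9.4 kb, the outer start being at the higher coordinate. For Peg3 the distance between regions was 24.2 kb, against 23.2 kb from the Peg3 start to the middle of its antisense gene Peg3os. For Nnat it was 6.3 kb, as is the distance from the Nnat start to the far end of Blcap. These are distances only, from different builds, and which part of each germline-marked stretch the probes cover was not determined. Nor was it determined whether each region is a promoter of the named gene.

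The input channel was dim, and this decides how much of each locus can be read. Over the 4 arrays the median net signal, after background subtraction, of all genomic probes was 48.9 to 56.5 in IP and 5.95 to 8.78 in input, over an input background of 22 to 26. A ratio was read only from probes whose input lay above background in all 4 arrays, which was the case for 47 of the 89 probes (52.8%) and for 54.4% of all probes. The net IP signal of the 89 probes had a median of 50.5 to 60.5 in the 4 arrays, close to that of all probes. Probe length went with readability. Of the 38 probes of 45 bp, 76.3% were readable (73.4% of all such probes), and of the 13 probes of 60 bp, 15.4% were (19.05% of all). All 4 arrays lay on 1 slide, with the lines in different positions, so line and position cannot be told apart.

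Snrpn was the locus that the array could hardly read. Of its 10 probes, 2 were readable, in the upper region at chr7:67149548-67151222, and none in the lower region at chr7:67120120-67120522. In the probe at chr7:67150096-67150140 the net IP signal was 954 (day -2) and 1040 (day +2) in control cells and 1196 and 1217 in shRNA8 cells. It was the brightest Snrpn probe, at percentile 92.9 of IP among array probes of its length. At chr7:67149548-67149592 the IP signal was 132 and 143 in control cells and 171 and 162 in shRNA8 cells, near the middle of its length class at percentile 54.2. In the 5 probes of 60 bp of the upper region the IP signal never rose above 3.53. The readable pair gave a mean log2 ratio of 1.04 and 0.84 in control cells and 1.16 and 1.096 in shRNA8 cells. A pair of probes was too few to count as a region. Without the filter on input the 8 probes of the upper region ranked between percentiles 8.22 and 13.0 of all regions, so this level rests on which probes are read.

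**Figure D1:**
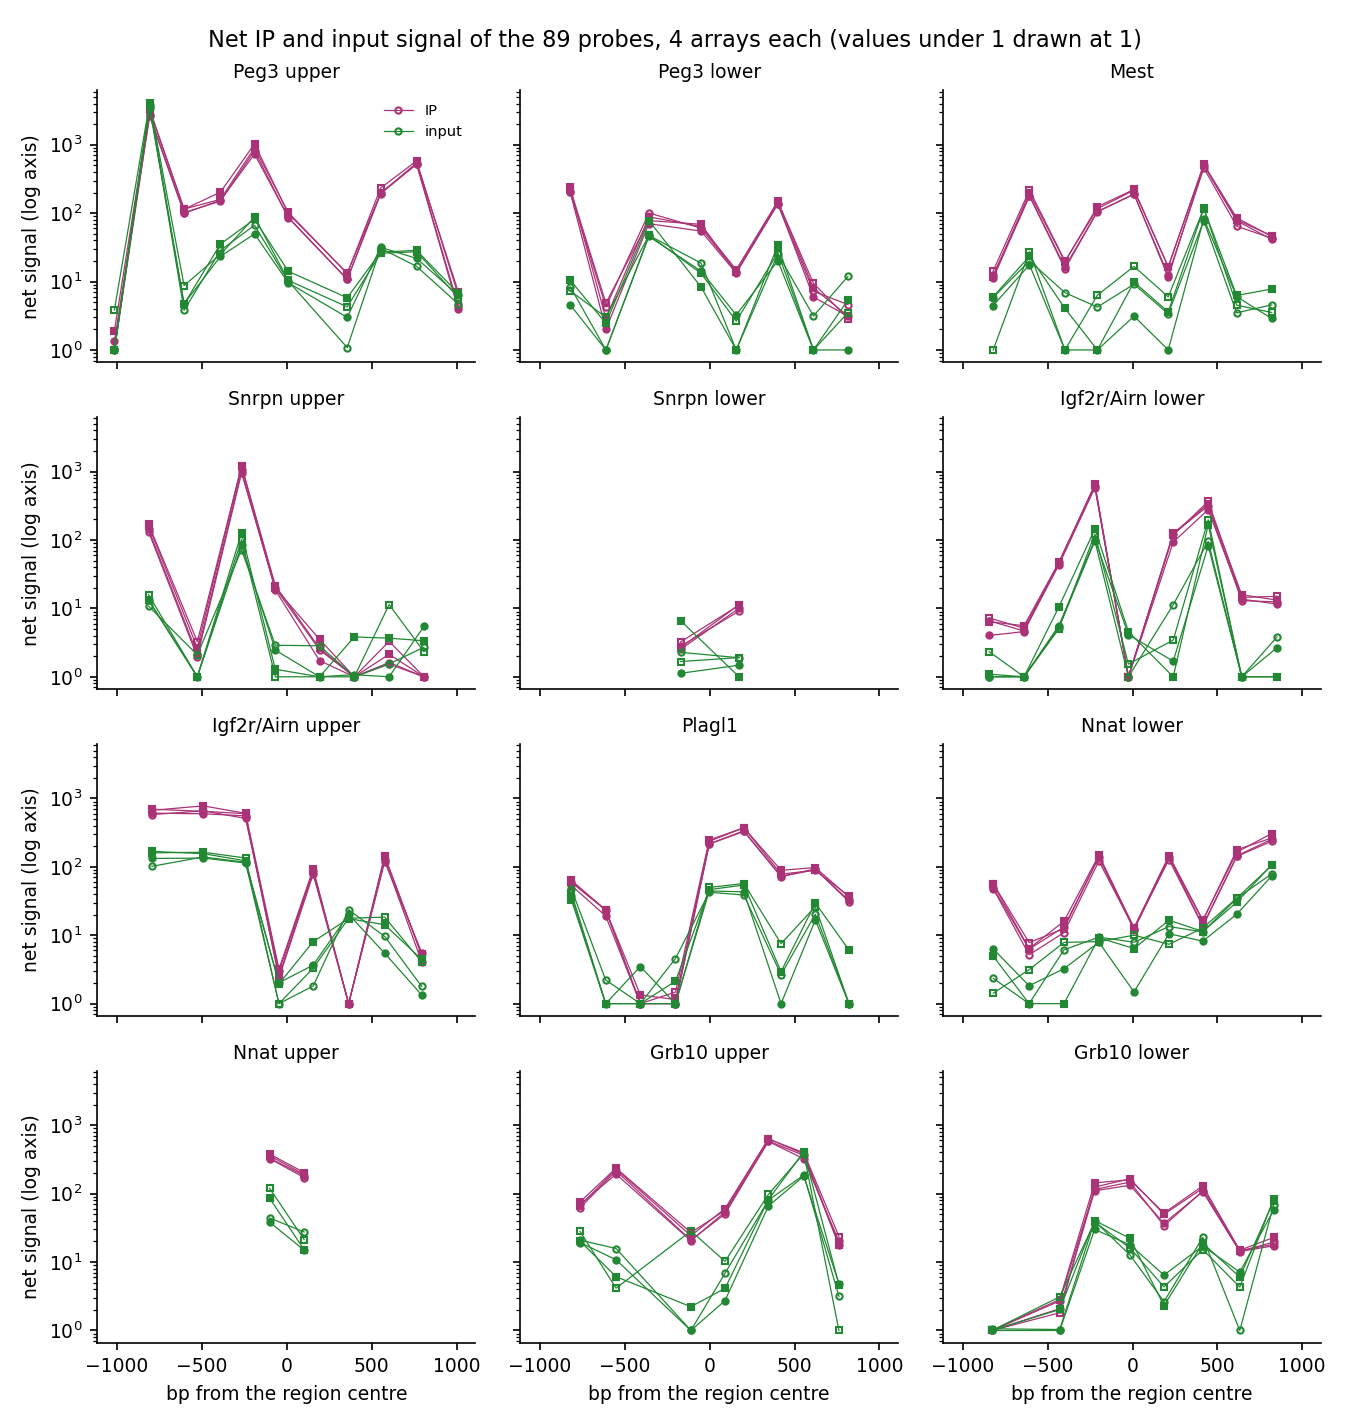
Net IP (purple) and input (green) signal of all 89 probes by distance in bp from the centre of each of the 12 tiled regions, on a log axis with values under 1 drawn at 1. Circles are control and squares shRNA8 cells, open at day -2 and filled at day +2; the 4 IP lines lie close together where the signal is bright, while the input lines spread, most of all at a net signal under 10.

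Brightness in IP varied far more along a locus than between arrays. In the Peg3 upper region the probe at chr7:6682361-6682405 reached 2709 and 2633 in control cells and 3181 and 3323 in shRNA8 cells, the highest of the 89. A neighbour at chr7:6682564-6682608 gave 102 and 99.5 in control cells and 115 and 114 in shRNA8 cells. The bright probe was bright in input too, at 3424 to 4095, so its log2 ratio was low, between -3.02 and -2.71. Over the 45 readable probes with a net IP above 10 in every array, the highest of the 4 arrays was 1.09 to 1.43 times the lowest, with a median of 1.21. Over all 66 probes with such an IP signal, readable or not, this ratio was 1.04 to 1.53, with a median of 1.22, and 3 of them were at Snrpn. These are raw values that include the difference in brightness between whole arrays. For the 23 dimmer probes no such ratio was taken.

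The loci did not stand apart from the rest of the array in IP brightness. Ranked among all array probes of the same length, the 89 probes had a median percentile of 50.6 and ran from 1.79 to 98.9, with 47 of them (52.8%) above the 50th and 11 (12.4%) above the 90th. The region medians ran from 38.4 in the Grb10 upper region to 67.3 in the Nnat upper region, which has only a pair of probes. In 11 of the 12 regions, all but the Nnat upper one, the lowest and the highest probe lay on either side of the 50th percentile. Rank within a length class does not measure methylation, since probes of a length also differ in sequence.

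**Figure D2:**
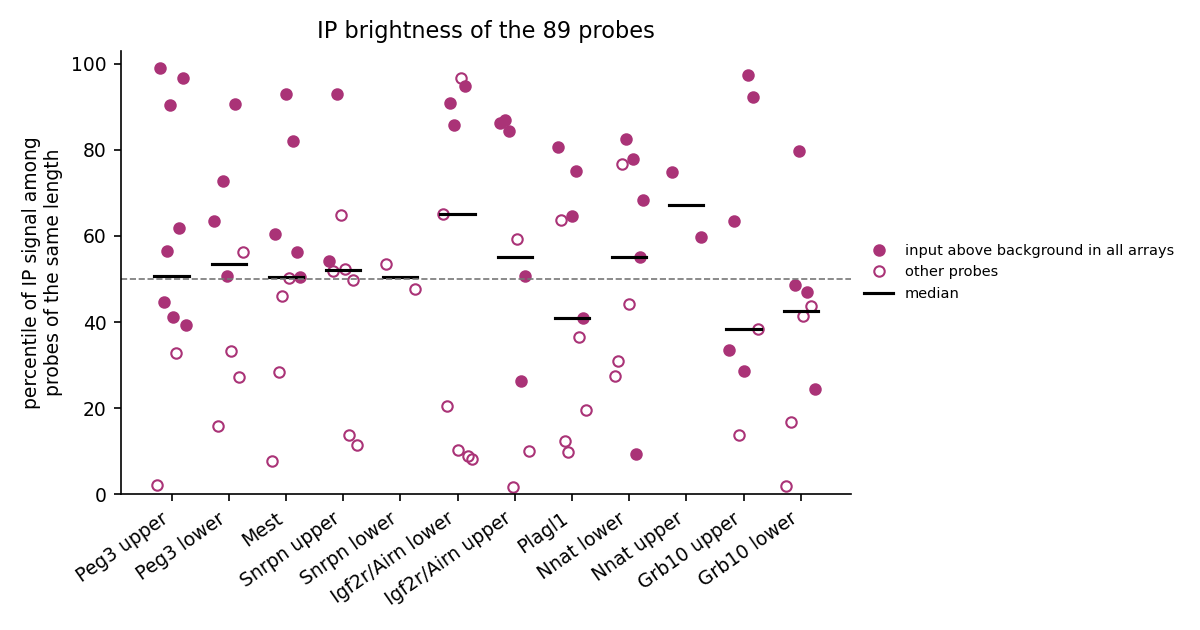
Percentile of each probe's mean IP signal over the 4 arrays among all array probes of the same length, by region; filled points are probes with readable input in all 4 arrays, open points the others, and black bars the region medians. The 89 probes scatter over the whole scale around the dashed line at 50, and the brightest, in the Peg3 upper region, sits at 98.9.

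The enrichment of a region was the mean log2 ratio of IP to input over its readable probes, after each array was centred on its median and the 4 arrays were quantile normalized. It was given for the 9 regions with at least 3 readable probes and ranked among the 17452 such regions of the array, whose median was -0.21 to -0.19. The 3 regions left out were the Snrpn pair and the Nnat upper region.

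Mest had the highest level of the 9. At chr6:30687013-30688485 the mean log2 ratio was 0.90 ± 0.76 (day -2) and 1.18 ± 1.22 (day +2) in control cells and 1.00 ± 0.79 and 0.85 ± 0.99 in shRNA8 cells (SD over 5 probes). This placed Mest between percentiles 93.0 and 97.7 of all regions in the 4 arrays, and no other of the 9 regions overlapped it in level. With the median of probes it ran from 84.2 to 97.5 and the Peg3 upper region from 67.1 to 90.2. These ranges overlap, though Mest ranked higher within each array. In IP alone Mest lay near the middle, between percentiles 45.4 and 47.3. The Peg3 upper region (63.7 to 68.0), the Grb10 upper region (57.0 to 59.1) and both Igf2r/Airn regions ranked above it there. The mean input of the Mest probes was dim, at -1.10 to -0.76 on the log2 scale relative to the array medians. When signals without background subtraction were used, its percentile was 68.1 to 75.8. The probe with the highest ratio, at chr6:30687625-30687677, had an IP signal of 189, 190, 217 and 222 against an input of 9.15, 3.12, 16.7 and 9.82, in the order control day -2, control day +2, shRNA8 day -2 and shRNA8 day +2. Its IP signal spanned a narrow range and its input a wide one, and its log2 ratio, from 1.36 to 3.16, was highest in the array with the dimmest input. The bright probe at chr6:30688040-30688084 gave log2 ratios of -0.35 to -0.10.

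The Peg3 regions lay somewhat above the middle as read here, and the place of the lower one depends on the probes and channel used. The upper region, chr7:6682361-6684230, had a mean log2 ratio of 0.09 ± 1.99 and -0.08 ± 1.97 in control cells and 0.21 ± 1.73 and 0.23 ± 1.89 in shRNA8 cells over 8 probes. The lower region, chr7:6658175-6659447, had -0.05 ± 1.47 and 0.07 ± 1.98 in control cells and 0.30 ± 1.75 and 0.10 ± 1.88 in shRNA8 cells over 4 probes. Over the 4 arrays these levels ran from percentile 56.3 to 74.9. With no filter on input the lower region ranked between percentiles 23.9 and 42.9, and in IP alone between 31.0 and 36.7, while the upper region ranked above 50 in both. Within the upper region single probes spanned log2 ratios from -3.15 to 2.45. The spread along the region was thus many times the difference between any of the arrays.

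At the Igf2r/Airn locus the lower region, on the side of the Airn start, ranked above the region on the side of the Igf2r start. The Airn side, chr17:12933287-12934221, had a mean log2 ratio of -0.08 ± 0.67 and -0.15 ± 0.68 in control cells and -0.17 ± 1.16 and -0.64 ± 0.74 in shRNA8 cells over 3 probes. On the Igf2r side, chr17:12962074-12963490, it was -1.06 ± 2.64 and -1.02 ± 2.72 in control cells and -1.05 ± 2.33 and -0.92 ± 2.36 in shRNA8 cells over 5 probes. The levels of the regions did not overlap in these arrays, but the order rests on a single probe. The 60-bp probe at chr17:12963226-12963285 had a net IP signal between -0.72 and 0.56, not above background, and log2 ratios of -5.67 to -5.03. With IP also required above background, which removes this probe, the Igf2r side ranked between percentiles 56.0 and 63.4 in place of 16.2 and 19.4, and the mean of its other probes was -0.02 to 0.12. The 3 probes nearest the lower edge of that region had IP signals of 511 to 778, at percentiles 84.3 to 86.9 of their length. On the Airn side, 3 of 9 probes lay above the 90th percentile of IP for their length, including an unread 60-bp probe with an IP signal of 93.1 to 125.

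Plagl1 had the narrowest range of log2 ratios over the 4 arrays among the 9 regions, while its IP level, with a range of 0.11, varied more than that of 6 others. At chr10:12809298-12810785 the mean log2 ratio was -0.52 ± 1.16 and -0.58 ± 1.01 in control cells and -0.49 ± 0.91 and -0.45 ± 0.88 in shRNA8 cells over 4 probes, between percentiles 32.0 and 37.2. The range over the 4 arrays was 0.13, and 5.08% of regions with as many probes had a range no larger than that.

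In log2 ratio the Nnat lower region varied more between arrays than Plagl1, with a range of 0.53. The Airn side (0.56) and the Grb10 upper region (0.54) had wider ranges. In IP the Nnat lower region had a range of 0.07, narrower than that of Plagl1. The lower region, chr2:157385169-157386233, had a mean log2 ratio of -0.38 ± 1.35 and -0.01 ± 1.35 in control cells and 0.14 ± 1.71 and -0.07 ± 1.47 in shRNA8 cells over 5 probes, from percentile 41.1 to 67.8. The control array at day -2 was the low one. In the upper region, chr2:157391616-157391864, the IP signal of both probes was well above background, at 326 to 380 and 172 to 204. Both were readable, though a pair is too few to count as a region. Their log2 ratios at day -2 were 0.19 and 0.16 in control cells and -0.67 and 0.92 in shRNA8 cells. The probes of the pair thus differed between the lines in opposite directions.

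The Grb10 regions differed in mean level, and much of the size of that difference rests on a single probe. The upper region, chr11:11937080-11938443, on the side of the outer start, had a mean log2 ratio of -0.11 ± 1.13 and 0.21 ± 1.47 in control cells and 0.13 ± 2.15 and 0.43 ± 2.16 in shRNA8 cells over 5 probes, at percentiles 55.1 to 80.5. The lower region, chr11:11928094-11929193, on the side of the inner start, had -1.20 ± 2.34 and -1.21 ± 2.14 in control cells and -0.88 ± 2.56 and -1.04 ± 2.28 in shRNA8 cells over 4 probes, at percentiles 12.7 to 21.1. That probe lies at chr11:11929148-11929193, and its IP signal of 17.3 to 22.9 stood against an input of 57.5 to 84.1 with a log2 ratio of -4.58 to -4.36. The other 3 probes of the lower region had ratios of -0.93 to 1.03. Without it the lower region averaged -0.10 and -0.16 in control cells and 0.35 and 0.07 in shRNA8 cells, above the median of all regions in every array and above the upper region in both arrays of day -2. With the median of probes in place of the mean the lower region ranked between percentiles 23.5 and 50.9. The upper region then ranked between 62.6 and 79.6, above the lower one in every array. In IP alone, with that probe included, the lower region ranked between 18.2 and 21.2 and the upper between 57.0 and 59.1. In the order of the 9 regions, neighbours below Mest differed by less than the SD over their probes. The lead of Mest was also within the spread of the next region. Its mean over the 4 arrays was 0.98, against 0.17 in the Grb10 upper region, where the SD over probes was 1.13 to 2.16.

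**Figure D3:**
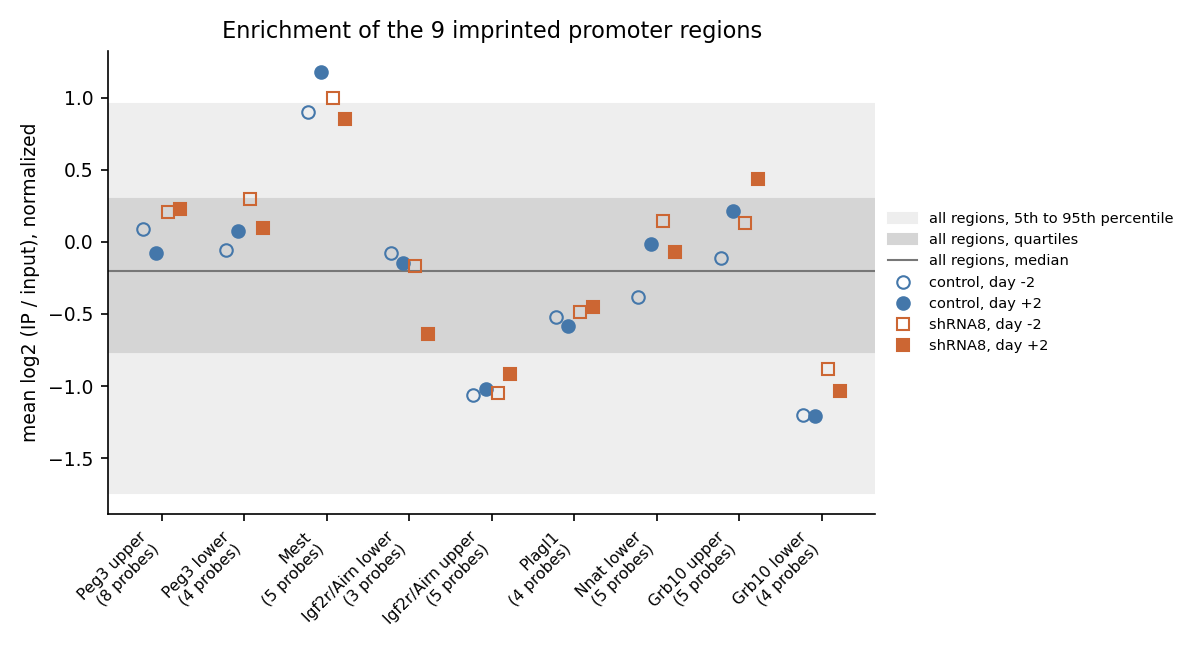
Mean log2 ratio of IP to input in the 4 arrays for the 9 regions with at least 3 readable probes, over grey bands for the quartiles and the 5th to 95th percentile of all 17452 regions. Mest lies at 0.85 to 1.18 in every array, the Igf2r side and the Grb10 lower region near -1, and the other 6 near the middle band.

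None of the 9 regions passed the size rule in any of the 4 comparisons. The rule takes a region as changed where its probes differ on average by 0.6 or more in log2 (1.52-fold) and 75% or more of them share the direction. The share of all regions past it is the background against which this count of 0 is read. At shares of a few percent, 9 regions are too few to show a departure from it.

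Before induction the question was whether the lines already differed. At day -2, shRNA8 against control cells, 0 of 9 regions passed, against 2.43% of all regions. The differences ran from -0.09 to 0.53, with 8 of 9 above 0, a median of 0.12 and a median size of 0.12. In IP they ran from -0.17 to 0.02 and in input from -0.52 to 0.06, so most ratios above 0 came without a higher IP. The share of all regions above 0 was not counted, here or at day +2. Over all regions the median ratio difference was 0.00 and the median size 0.16. Nnat came closest. The mean log2 ratio of its lower region was -0.38 in control and 0.14 in shRNA8 cells, and 4 of its 5 probes were higher, by 0.53 ± 0.46 on average (SD over probes). A difference of that size exceeds that of 96.6% of regions with as many probes. It came with an IP difference of 0.02 and an input difference of -0.51, on scales centred on each array's median. The probe that moved most, at chr2:157385583-157385629, had an IP signal of 128 in control and 140 in shRNA8 cells and an input of 13.4 and 7.38. The Peg3 lower region (0.35 ± 0.47) and the Grb10 lower region (0.31 ± 0.47) also had inputs lower by 0.52 and 0.47, with IP lower by 0.17 and 0.15. In Mest (0.10 ± 0.38), Plagl1 (0.04 ± 0.31) and on the Igf2r side (0.01 ± 0.36) the difference was well within the spread over probes.

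After induction the same lines were compared at day +2, where 0 of 9 regions passed, against 3.34% of all regions. The differences ran from -0.49 to 0.30, with 6 above 0 and 3 below, a median of 0.10 and a median size of 0.17, against 0.02 and 0.18 over all regions. The Airn side had the most negative value. Its mean log2 ratio was -0.15 in control and -0.64 in shRNA8 cells, and all 3 probes were lower, by 0.64, 0.19 and 0.63 in coordinate order, which gave a mean of -0.49 ± 0.25. Its size exceeded that of 84.6% of regions with as many probes. IP differed there by -0.09 and input by 0.33. With all 9 probes of that region, readable or not, the difference was 0.10, on the other side of 0. The Peg3 upper region had the highest value, 0.30 ± 0.34, with 7 of 8 probes higher, an IP difference of 0.11 and an input difference of -0.20. In Mest the difference was -0.33 ± 0.66 with 3 of 5 probes lower. The Nnat lower region, highest at day -2, was at -0.06 ± 0.20. At day -2 none of the 9 regions had all of its probes on one side of 0, and at day +2 only the Airn side did.

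In control cells the days were compared, where induced cells are also later in culture and no uninduced array of day +2 is among the 4, and 0 of 9 regions passed, against 2.09% of all regions. The changes from day -2 to day +2 ran from -0.17 to 0.37 with a median of 0.04, against 0.00 over all regions. In the Nnat lower region all 5 probes were higher at day +2, by 0.37 ± 0.21, a size above that of 89.5% of regions with as many probes, with an IP change of 0.07 and an input change of -0.28. This comparison and the one between lines at day -2 share the control array of day -2, in which Nnat was low. The Grb10 upper region had 0.32 ± 0.55 with 4 of 5 probes higher, and Mest 0.28 ± 0.77 with 3 of 5. On the Airn side all 3 probes were lower by a small amount, with a mean of -0.07 ± 0.05.

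In shRNA8 cells 0 of 9 regions passed between the days, against 3.19% of all regions. Changes ran from -0.47 to 0.31, with a median of -0.15, against 0.02 over all regions, and a median size of 0.15 in both. All 3 probes of the Airn side were lower at day +2, by 0.47 ± 0.48, with an IP change of -0.06 and an input change of 0.36. The shRNA8 array of day +2 enters both comparisons in which the Airn side was low. The Grb10 upper region was higher by 0.31 ± 0.65, with 3 of 5 probes higher, close to its change in control cells. Its IP changed by -0.03 in control and 0.02 in shRNA8 cells, and its input by -0.34 and -0.27. Plagl1 changed by 0.03 ± 0.12 in shRNA8 cells.

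**Figure D4:**
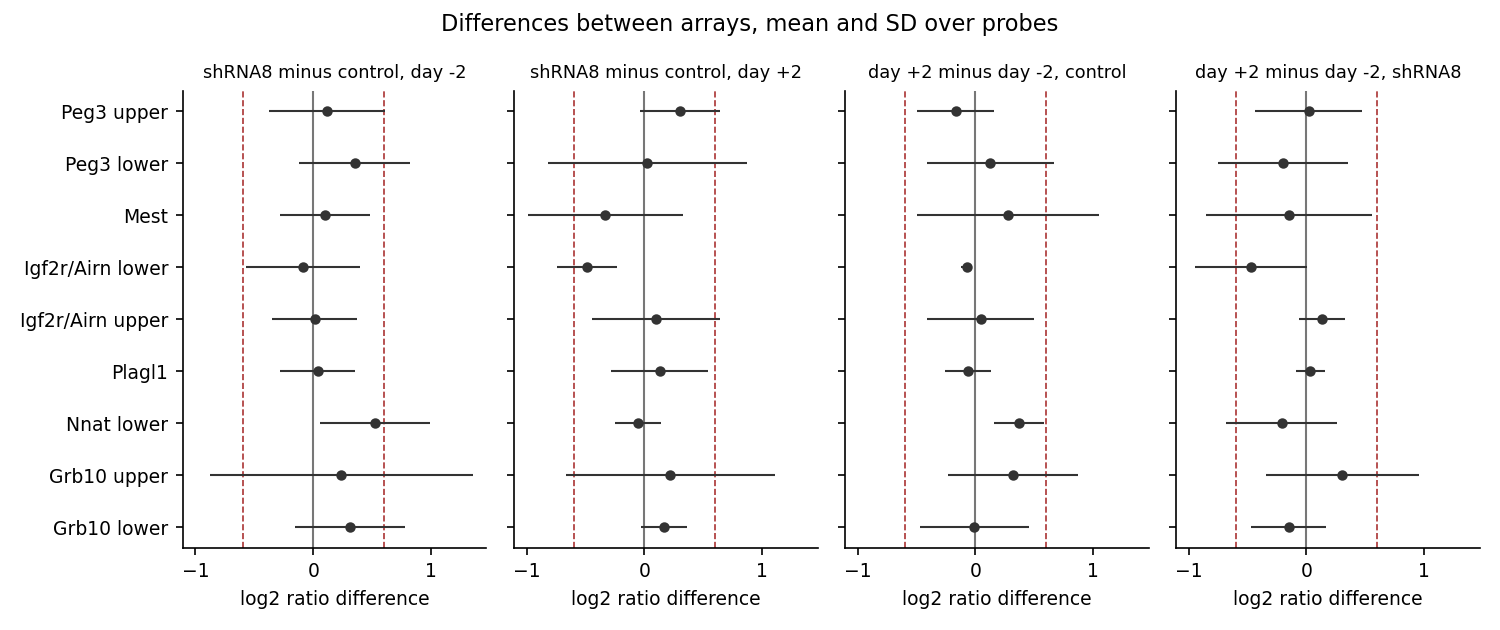
Mean difference in log2 ratio of the 9 regions in the 4 comparisons, with bars of 1 SD over the probes of a region and dashed lines at the size of 0.6. All 36 points lie between the dashed lines, the farthest out being the Nnat lower region between the lines at day -2 (0.53) and the Airn side between the lines at day +2 (-0.49).

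The change with the days was set against each other in the lines as a last comparison, in which 0 of 9 regions passed, against 5.8% of all regions. It ran from -0.58 to 0.19 over the 9 regions. The Nnat lower region changed by 0.37 in control and -0.21 in shRNA8 cells, so that all 5 probes had a lower change in shRNA8 cells, by 0.58 ± 0.48. Mest followed with -0.43 ± 0.77, and the Airn side with -0.40 ± 0.49. In the Grb10 upper region the changes in the lines differed by only -0.02 ± 0.36. All 4 arrays enter this comparison, and none is left to estimate its error.

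The IP channel moved little between arrays in these regions and the input channel moved more. Over the 47 readable probes the IP differences had an SD of 0.13 to 0.15 (log2) in the 4 comparisons, against 0.11 to 0.14 over all 95060 readable probes. For input the SD was 0.44 to 0.58, against 0.51 to 0.57. In IP, 46, 46, 46 and 47 of the 47 probes stayed within 0.5 of their array's median shift in the comparisons between lines at day -2, between lines at day +2, between days in control and between days in shRNA8 cells. The IP difference of a region never exceeded 0.19 in size, while its input difference reached 0.52. Input is DNA before selection, and how its spread enters the ratios of single loci was not tested.

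**Figure D5:**
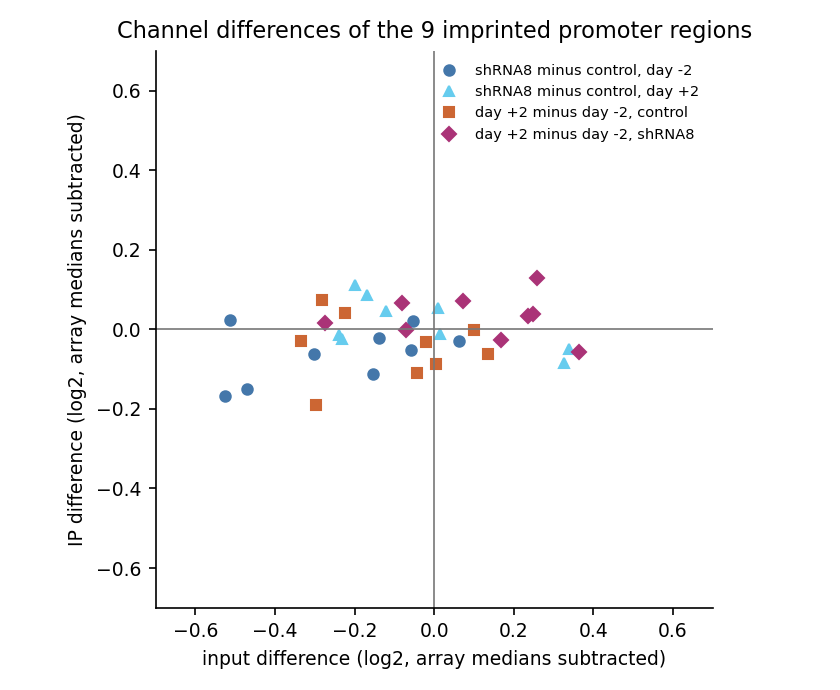
IP difference against input difference for the 9 regions in the 4 comparisons, both on the log2 scale after subtraction of array medians. Points spread from -0.52 to 0.36 along the input axis and from -0.19 to 0.13 along the IP axis.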

How the data were processed

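Methylated DNA immunoprecipitation was read on 4 Agilent arrays, 1 per line and day. The authors deposited Feature Extraction 11.0.1.1 output on mm9, per the file headers, with an intensity per spot and channel, its background, and a log10 ratio with a p-value, the last not used. Limma is listed, without its role, in the submitters' processing notes. Here the log2 ratio of the deposited processed Cy5 and Cy3 intensities was taken. Probes marked saturated, non-uniform or outlying were left out (174301 remained). Those whose input failed to lie above background in at least 1 of the 4 arrays were also left out (95060 remained). Arrays were median centred and quantile normalized, which removes any difference in overall methylation. One input label (shRNA8, day +2) describes uninduced cells and was read as day +2. Every member is named by the rule, and regions by the highest level and the largest differences. Members and lists were chosen with earlier results of these data known. Other imprinted loci were not analysed here. The region script was tested on simulated data. Alternatives are in the closing section. Software was R 4.3.3 with limma 3.58.1, and Python 3.11.15 with pandas 2.3.3, numpy 2.4.6, matplotlib 3.10.9 and scipy 1.17.1.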

Additional observations from a re-analysis of the deposited data

How the results depend on the processing

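The count of regions past the size rule was 0 of 9 in each comparison and became 1 under a few alternatives. With a size of at least 0.4 it was 1 between the lines at day -2 (Nnat lower region, higher), 1 between the lines at day +2 and 1 between the days in shRNA8 cells (both the Airn side, lower), where 8.09%, 10.3% and 8.31% of all regions passed. With the median of probes it was 1 between the lines at day +2, where 2.95% of all regions passed. After a within-array loess it was 1 between the days in shRNA8 cells, where 5.5% passed. Both were again the Airn side. The causes were not tested. All other settings gave 0, including median centring alone, the deposited log ratio, no filter (10 regions), input well above background (4 regions), no background subtraction, each channel alone, removal of the trend on probe length, a size of at least 1, all probes moving together, at least 5 probes (5 regions) and, chosen after seeing the data, IP also above background. The levels without the probe of the lowest ratio, in the Grb10 lower region and on the Igf2r side, were also chosen after seeing the data. Some of the settings that gave 0 let few regions pass anywhere. In IP alone 0 of all 17452 regions passed in each comparison, and without background subtraction 0.00573% to 0.0802%. With a size of at least 1 it was 0.155% to 0.521%, and with input well above background 0.358% to 1.0%. There a count of 0 among the members is no separate check. Of 276 alternative values of the 28 window differences, input alone aside, 271 stayed within 1 SD over probes and 36 changed sign, 12 of them in IP alone. That SD exceeded most of the 28 differences in size, so a value could change sign and still stay within it. The deposited log ratio and median centring alone gave the same count over all regions in every comparison. Each adds 28 of these values, so they are not separate checks. The Nnat day change in control cells, 0.40, was 0.07 in IP alone. For the Snrpn window, the difference at day -2 of 0.12 over its readable pair of probes was -0.0025 over all 10 probes with no filter. Its control day change of -0.20 was -0.12 over all 10, and over the pair 0.07 without background subtraction and 0.10 in IP alone. No paired analysis was possible because the groups compared share only 1 replicate number, and an additive fit of line and day was not run. The dim input limits what can be read: 42 of the 89 probes gave no ratio, and 4 arrays leave the variation between cultures unknown.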
